A study of Mus musculus with 14 samples.

Results

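Hspb1 is the gene of a small heat shock protein, and it was described here beside 9 other heat shock chaperone genes: Hspb8, Hspa1a, Hspa1b, Hspa8, Hsph1, Dnajb1, Hsp90aa1, Hspd1 and Hspe1. The 10 genes were taken by symbol, and all 10 were found among the 27399 genes of the bulk count files and in each single-cell matrix. They were proposed with their response to the compound Isx-9 already known, so the values that compare Isx-9 with DMSO are a description and carry no test. The organoids were mouse intestinal epithelium grown in culture, and Isx-9 is a small molecule known as an inducer of neuronal differentiation. The title of the series asks whether enteroendocrine cells, which line the gut and secrete hormones, can be induced with it. For bulk RNA-seq, Lgr5-EGFP knock-in organoids were kept for 6 hours in 0.05% DMSO (2 libraries) or 25 µM Isx-9 (2 libraries), and their stem cells were sorted. The single-cell libraries covered whole organoids: wild type without treatment, Chgb-mCherry knock-in reporter without treatment, reporter after 6 days of 0.05% DMSO, and reporter after 6 days of 25 µM Isx-9, with 1 library each. The labels do not say whether replicates came from separate cultures, so the spread between them may be technical.

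Heat shock proteins bind unfolded or partly folded proteins. Small heat shock proteins such as Hspb1 and Hspb8 hold them without using ATP, HSP70 proteins such as Hspa8 and the stress-inducible Hspa1a and Hspa1b fold them in cycles of ATP use, J proteins such as Dnajb1 hand clients to HSP70, and Hsph1 exchanges its nucleotide. Hsp90aa1 matures signalling proteins, and Hspd1 with its lid Hspe1 forms the folding chamber of mitochondria. In the classical heat shock response the factor Hsf1 binds heat shock elements, inverted repeats of the unit GAA, in the promoters of these genes and raises them together.

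The promoters are shown because heat shock elements are the best known regulatory sequence of these genes. RefSeq windows of 250 bases upstream of the start (GRCm38.p6) were held for 8 of the 10 genes, and Hspa8 and Hsp90aa1 were not among them. The windows were searched for the pairs GAANNTTC and TTCNNGAA, each its own reverse complement, so that a search of 1 strand covers both. At least 1 pair stood in 12.8% of 32851 windows of that length. Hspb1 had 2 pairs, at 117 and 97 bases before its start, and Hspb8 had none. In both sequences the gene's own strand is read, and capitals mark the pairs.
Hspb1 (chr5:135887669-135887918, plus strand): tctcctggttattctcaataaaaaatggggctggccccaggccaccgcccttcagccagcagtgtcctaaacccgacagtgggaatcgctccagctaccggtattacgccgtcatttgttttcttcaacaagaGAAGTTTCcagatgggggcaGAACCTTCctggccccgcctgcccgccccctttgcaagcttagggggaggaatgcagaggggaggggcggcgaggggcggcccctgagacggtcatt
Hspb8 (chr5:116422865-116423114, minus strand): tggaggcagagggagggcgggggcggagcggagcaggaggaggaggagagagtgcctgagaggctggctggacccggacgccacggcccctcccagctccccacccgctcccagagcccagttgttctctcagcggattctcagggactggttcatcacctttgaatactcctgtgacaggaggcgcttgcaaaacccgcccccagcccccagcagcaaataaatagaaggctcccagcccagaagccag

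The other members are shown by 30 bases around their match. Hspd1 and Hspe1 lie head to head. Of 2 windows of Hspd1, for 2 annotated starts, the one that adjoins the end of the gene as listed has no pair, and the other shares with Hspe1 an element of overlapping pairs, which begins 89 bases before the start of Hspe1 and also holds runs of 3 alternating units in both orientations, of which at least 1 was found in 0.466% of all windows. Hspa1a and Hspa1b differ at 3 of the 250 bases upstream, and each has 1 pair at 104 bases before the start. Hsph1 has 1 pair, and neither window of Dnajb1 has any. A match is a string of letters, not a measured binding site.
Hspe1, plus strand, chr1:55088052-55088081: cggtccgTTCTAGAACCTTCCGGAAggccc
Hspa1a, minus strand, chr17:34972243-34972272: gcgaaactgctgGAAGATTCctggccccaa
Hsph1, minus strand, chr5:149636352-149636381: tgggtagaatctTTCTCGAAggctcgagaa

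The bulk libraries held between 18909542 and 19487264 counts. In them 17418 genes were tested with edgeR, of which 4755 rose and 3488 fell with Isx-9 at an adjusted p under 0.05. That is 57.7% higher calls, against 72.3% when libraries were scaled by their size alone, a choice that moves the median log2 fold change of all tested genes from 0.02 to 0.14. The stem cell label was checked on Lgr5, at 378 and 341 CPM (counts scaled to a library total of 1e6) with DMSO and 312 and 320 with Isx-9, and the stem marker Olfm4 was at 6068 and 5895 against 4781 and 3646 CPM. In bulk RNA, fewer cells of a type and less RNA per cell cannot be told apart. The single-cell libraries kept 8744, 9610, 8969 and 9185 cells (wild type, reporter, DMSO, Isx-9), with median UMIs (counted molecules) per cell of 15007, 12633, 13388 and 8888. The doublet caller removed 1, 0, 0 and 831 cells, so it did not work in the 3 control libraries, and values with doublets kept are given where they matter. Between 13 and 35 kept cell barcodes were shared by any 2 libraries.

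After 6 hours, Hspb1 stood at 1.238 and 0.771 CPM in the DMSO libraries and at 17.5 and 16.5 CPM in the Isx-9 libraries. These were 23 and 14 counts against 351 and 330, so the DMSO level rests on few reads. Both Isx-9 libraries were far above both DMSO libraries, with a log2 fold change of 4.07 (SE 0.29). Hspb1 (ENSMUSG00000004951) lies on chr5:135887919-135889563 (GRCm38.p6). Its counterpart Hspb8, which works with the co-chaperone Bag3 in the disposal of damaged proteins, was at 0.754 and 0.165 CPM with DMSO and at 4.58 and 2.94 CPM with Isx-9. Its groups did not overlap either, and its log2 fold change was 3.01 (SE 0.61). That value was 4.45 without DMSO replicate 1 and 2.30 without DMSO replicate 2, because the DMSO libraries held 14 and 3 counts. The 2 small heat shock protein genes were thus the 2 members with the largest differences.

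**Figure D1:**
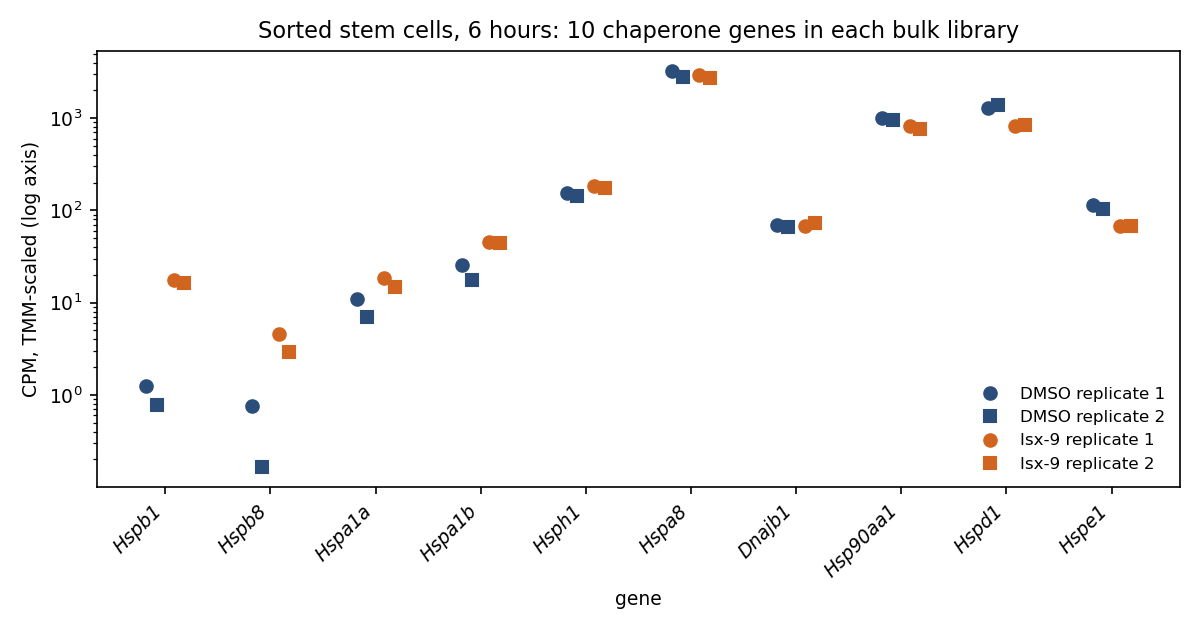
Level in CPM (TMM-scaled, log axis) of the 10 chaperone genes in each of the 4 bulk libraries of sorted stem cells after 6 hours of DMSO or Isx-9; circles and squares are replicates 1 and 2. Hspb1 goes from 0.771 and 1.238 with DMSO to 16.5 and 17.5 with Isx-9, while Hspa8 and Dnajb1 overlap between treatments.

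The HSP70 group differed much less. Hspa1a, an inducible HSP70, was at 11.0 and 6.94 CPM with DMSO and 18.4 and 14.6 CPM with Isx-9, a log2 fold change of 0.88 (SE 0.24). Its near copy Hspa1b was at 25.4 and 17.7 against 45.04 and 44.6 CPM, or 1.05 (SE 0.16). Neither gene's groups overlapped, as was so for 38.9% of all tested genes in this direction. The pair lies close together on chromosome 17 and is nearly identical, so reads may be split between them, and their summed counts gave 1.01 (SE 0.16). Hspa8, the constitutive HSP70 of the cytosol, was at 3277 and 2819 against 2908 and 2733 CPM, with overlapping groups and a log2 fold change of -0.11 (SE 0.09) that was 0.02 when scaled by library size alone. Hsph1, an HSP110 that exchanges the nucleotide of HSP70, was at 154 and 143 against 184 and 177 CPM, or 0.28 (SE 0.08). Dnajb1, a J protein that is itself heat-inducible, was at 68.7 and 66.0 against 67.2 and 72.7 CPM, with overlapping groups and a difference of 0.06 (SE 0.09).

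The remaining 3 members were lower with Isx-9. Hsp90aa1, the inducible cytosolic HSP90, was at 1015 and 961 CPM with DMSO and 821 and 767 CPM with Isx-9, a log2 fold change of -0.32 (SE 0.07). Hspd1, the mitochondrial chaperonin, was at 1298 and 1386 against 811 and 838 CPM, or -0.70 (SE 0.07). Hspe1, its lid, was at 114 and 102 against 67.2 and 67.8 CPM, or -0.68 (SE 0.09). Both Isx-9 libraries were below both DMSO libraries in these 3 genes, as they were in 34.8% of all tested genes. The values of Hspd1 and Hspe1, which share 1 promoter region, differed by less than either standard error.

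At 6 hours the log2 fold change of Hspb1 lay 4.01 above the median of the other 9 members, and between 3.74 and 4.36 above it when any 1 library was left out. Its distance from Hspb8 depended on which library was dropped. In the full fit Hspb1 was at 4.07 and Hspb8 at 3.01. Dropping DMSO replicate 2 gave 3.76 against 2.30. Isx-9 replicate 1 left out gave 4.03 against 2.67, and Isx-9 replicate 2 left out gave 4.14 against 3.32. Only with DMSO replicate 1 dropped did the genes meet, at 4.44 for Hspb1 and 4.45 for Hspb8. The DMSO level of Hspb8 then rests on 3 counts. Of the 10 members, 5 were higher and 3 lower by the edgeR call, where 27.3% of all tested genes were higher and 20% lower. The members were proposed from this contrast, so nothing is read from that count. Without DMSO replicate 2 it was 3 higher and 4 lower (Hspa1a and Hsph1 lost their call and Hspa8 gained one), and without Isx-9 replicate 1 it was 3 higher and 3 lower (Hspa1a and Hsph1 lost theirs). Large folds were frequent among weakly expressed genes. Of the 5216 tested genes with a mean of 1 to 10 CPM over the 4 libraries, 768 (14.7%) had a log2 fold change at least as high as that of Hspb1, and 21.2% one at least as high as that of Hspb8. Among the 2336 genes over 100 CPM, where Hspa8, Hsp90aa1, Hspd1 and Hsph1 lie, none did, 5.95% rose and 54.7% fell. The authors' deposited table gives 4.09 for Hspb1, 3.04 for Hspb8 and -0.69 for Hspd1.

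The other chaperone genes were read from lists chosen by role. Over 75 tested genes, 19 rose and 35 fell (edgeR, adjusted over all genes), with a median log2 fold change of -0.21. Of all tested genes 27.3% rose and 20% fell, with a median of 0.02. Many of the listed genes were over 100 CPM, where 5.95% of all tested genes rose, 54.7% fell and the median was -0.24. Scaled by library size alone, 25 of the 75 listed genes rose and 29 fell. The chaperonin TRiC, which folds actin and tubulin in the cytosol, fell in 8 of 8 subunits, with a median of -0.35. All 8 lie over 100 CPM, where 54.7% of all tested genes fell and the median was -0.24. Cct3 had the largest change, of -0.46, from 387 and 352 CPM to 261 and 275 CPM. Of 8 mitochondrial chaperones and proteases, 7 fell and none rose, with a median of -0.47. Of these 8, 4 were over 100 CPM with DMSO. Of all tested genes 20% fell, as did 25.7% of those at 10 to 100 CPM and 54.7% of those over 100 CPM. The mitochondrial genes that fell included Grpel2 (-0.61), a nucleotide exchange factor, and the protease Lonp1 (-0.60). Of 12 HSP90 genes and co-chaperones, 8 fell and 1 rose. Of these 12, 7 were over 100 CPM with DMSO, and 54.7% of all tested genes over 100 CPM fell. Hsp90ab1, the constitutive cytosolic HSP90, changed by -0.38 and its activator Ahsa1 by -0.71. The gene that rose was Fkbp5, an HSP90 co-chaperone known as a target of the glucocorticoid receptor, from 37.4 and 30.3 to 111 and 106 CPM, or 1.68. Among 6 BAG genes and exchange factors 2 fell, Bag1 (-0.56) and Hspbp1 (-0.50), where 20% of all tested genes fell. Bag3, the partner of Hspb8 and a target of Hsf1, was at 70.7 and 64.5 against 70.0 and 77.7 CPM, with overlapping groups (0.13, SE 0.10).

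Some chaperones outside the 10 also rose with Isx-9. Of 8 other HSP70 and HSP110 genes 4 rose and 1 fell, where 27.3% of all tested genes rose and 20% fell. Hspa12a, a distant HSP70, went from 0.161 and 0.275 CPM to 20.3 and 18.9 CPM, a log2 fold change of 6.45 (SE 0.33). Hspa2, a testis-enriched HSP70, went from 9.21 and 8.65 to 50.5 and 45.2 CPM, or 2.42 (SE 0.14). Of 12 other J proteins 2 rose and 7 fell, with Dnaja4 at 2.26 (from 3.45 and 1.54 to 13.7 and 10.4 CPM) and Dnaja1 at -0.45. Of these 12, 6 were over 100 CPM with DMSO, and 54.7% of all tested genes over 100 CPM fell. Of 3 other tested genes of the small heat shock protein list 1 rose, Hspb11 (1.10, SE 0.36). Hspb6 had overlapping groups and a log2 fold change of -0.04 (SE 0.20). Hspb9, at 1.02 (SE 0.67), did not pass the test, and it had 8 and 5 counts with DMSO against 16 and 13 with Isx-9. The list thus did not rise as a whole. Cryab was at most 0.110 CPM in any bulk library, too low to be tested. Of 4 tested genes of the factor list, Hsf4 (1.93) and Hsf2 (0.77) rose, and Hsf1 fell by 0.29, from 58.9 and 57.2 to 48.7 and 46.4 CPM. Of 14 chaperones of the endoplasmic reticulum 9 rose and 1 fell, with a median of 0.27, where 27.3% of all tested genes rose and 20% fell. Of these 14, 9 were over 100 CPM with DMSO, a level at which 5.95% of all tested genes rose and 54.7% fell. Sdf2l1 (0.74), Dnajb9 (0.69), Creld2 (0.60) and Manf (0.51), all known targets of the unfolded protein response, led this list. Immediate early genes, which tissue dissociation is known to raise, were 5 higher and 1 lower of 11, led by Egr1 (0.92). Of these 11, 10 were over 100 CPM with DMSO, and over 100 CPM 5.95% of all tested genes rose and 54.7% fell. The part of sorting in the members' values was not tested.

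At 6 days, Hspb1 was again far higher with Isx-9. In all cells together Hspb1 had 39 UMIs in untreated wild type, 32 in untreated reporter and 29 in DMSO-treated reporter organoids, and 19289 with Isx-9. As CPM of UMIs these were 0.287, 0.246 and 0.228 (exact Poisson 95% interval for DMSO 0.153 to 0.328) against 200.6 (197.8 to 203.5). All intervals cover counting error only, and with 1 library per condition no test was possible. The ratio of Isx-9 to DMSO was 879 (612 to 1313), and it was 815 against the untreated reporter and 698 against wild type. Of 14417 genes with at least 100 UMIs over both libraries and at least 1 in each, 5 had a higher ratio: Cym, Klk8, Mfap2, Wfdc2 and 2610016A17Rik, named after their values were seen. A further 2900 genes had no UMI with DMSO and some with Isx-9, and none of them reached the Isx-9 level of Hspb1. The counting intervals of the 3 control libraries overlapped.

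Hspb1 UMIs were seen in most Isx-9 cells. A UMI was seen in 6111 of 9185 cells (66.5%), and in 24, 21 and 18 cells of the controls. With each cell thinned to 5000 UMIs, which left out 965 shallower Isx-9 cells and 1123, 1115 and 1065 of the controls, the share was 52.6% with Isx-9 and 0.144%, 0.0942% and 0.0886% in the wild-type, reporter and DMSO libraries. The control libraries hold too little Hspb1 to give the share that free RNA would leave in the Isx-9 library, and no Isx-9 state of at least 30 cells was without Hspb1 UMIs to read it from. The part of free RNA in these shares was not tested. Of the Isx-9 cells 3074 had 0 Hspb1 UMIs, 2074 had 1, 2736 had 2 to 4, 1079 had 5 to 9 and 222 had 10 or more, with a maximum of 37. None of the control cells with a Hspb1 UMI carried a barcode that was also in the Isx-9 library.

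**Figure D2:**
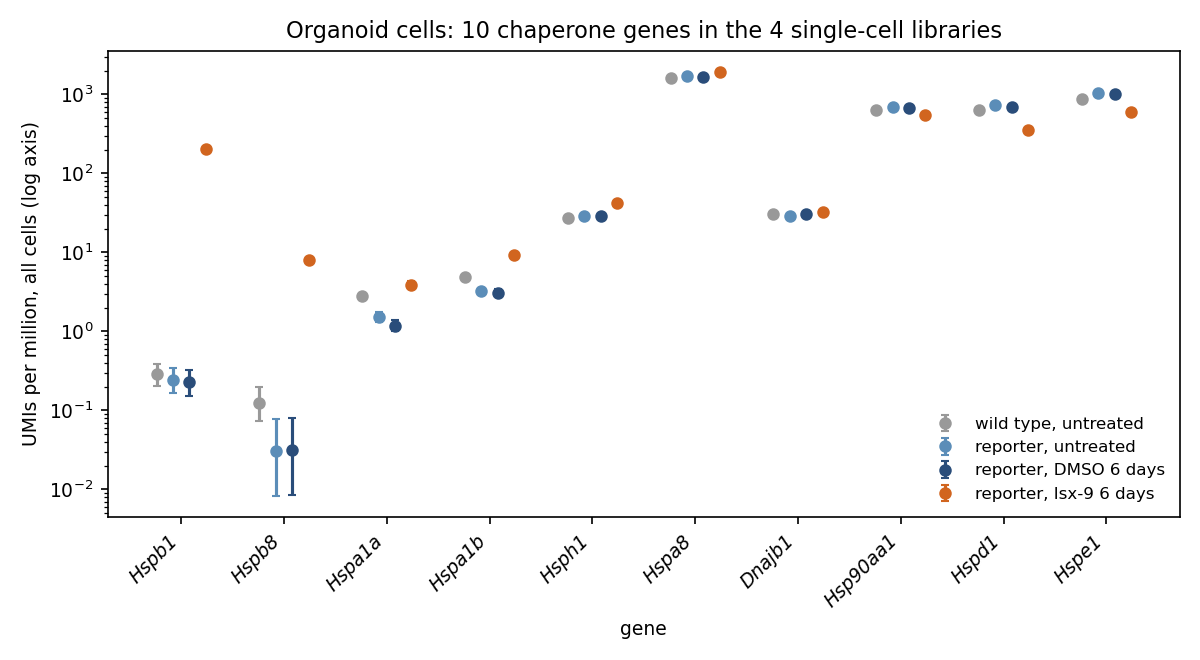
Level in CPM of UMIs (log axis) of the 10 chaperone genes over all kept cells of each single-cell library, with exact Poisson 95% intervals. The 3 control libraries of Hspb1 lie between 0.228 and 0.287 and the Isx-9 library at 200.6, whereas for Dnajb1 the 4 libraries lie between 29.2 and 32.6.

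Hspb8 repeated the pattern at a lower count. It had 17, 4 and 4 UMIs in wild type, reporter and DMSO (0.125, 0.0308 and 0.0315 CPM) and 770 with Isx-9 (8.01 CPM). The ratio to DMSO was 254 (99.0 to 936), and to wild type it was 63.9 (39.7 to 110), so that neither value lies in the interval of the other. It was seen in 656 Isx-9 cells and in 14, 4 and 4 control cells.

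The other 8 members had ratios between 0.52 and 3.30. Hspa1a was at 1.18 CPM with DMSO and 3.89 with Isx-9, a ratio of 3.30 (2.72 to 4.01), but untreated wild type was at 2.78 and the ratio to it 1.40. The untreated reporter was at 1.52 CPM, and the ratio of Hspa1a to it was 2.55. Hspa1b was at 3.1002 against 9.31 CPM, or 3.003 (2.66 to 3.39), and 1.93 against wild type. Averaging CPM over cells instead of summing UMIs lowered these ratios to 1.78 and 1.81, and summing the 2 genes gave 3.08. Hsph1 was at 29.1 against 42.1 CPM, or 1.45 (1.38 to 1.51). Hspa8 was at 1679 against 1912 CPM (1.14) and Dnajb1 at 30.5 against 32.6 CPM (1.07). Lower with Isx-9 were Hsp90aa1, at 670 against 544 CPM (0.81), Hspe1, at 1007 against 604 CPM (0.60), and Hspd1, at 689 against 355 CPM (0.52, interval 0.51 to 0.52).

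Hspb1 lay 9.59 on the log2 scale above the median of the other 9 members. Of the 10 genes 4 were at least 1.5-fold higher and 2 at least 1.5-fold lower, where 40.1% and 9.73% of all 14417 genes were, and nothing is read from the members' count. The median log2 ratio over those genes was 0.36. DMSO alone gave nothing of this size: against the untreated reporter, the ratios of Hspb1, Hspa8, Hsph1 and Hspd1 were 0.93 (0.54 to 1.58), 0.99, 0.998 and 0.95. In that comparison 0.556% of 13130 genes were 1.5-fold higher and 0.289% lower.

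**Figure D3:**
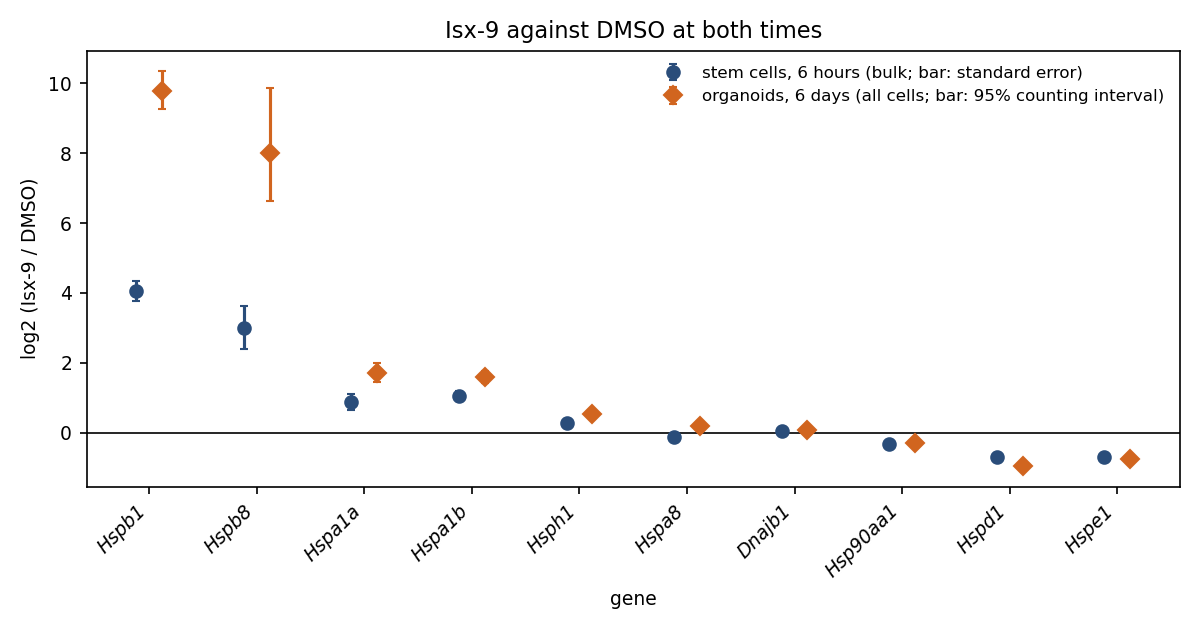
Log2 ratio of Isx-9 to DMSO of the 10 members in sorted stem cells after 6 hours (bars: standard error, 2 libraries per treatment) and in all organoid cells after 6 days (bars: 95% counting interval, 1 library per treatment). Hspb1 is at 4.07 and 9.78 and Hspb8 at 3.01 and 7.99, and the other 8 lie between -0.96 and 1.72 at both times.

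Side by side, the order of the members was much the same at both times, from sorted stem cells to whole organoids. Hspb1 and Hspb8 came first, then Hspa1a and Hspa1b, then Hsph1, and Hspd1 and Hspe1 were last. Hspa8 was the gene whose fold lay on either side of 0, at -0.11 and 0.19. The cells, the assay and the DMSO libraries differ between the times, so the sizes were not compared.

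The other chaperone lists at 6 days also had members far from the rest. Hspa12a had 12 UMIs with DMSO and 681 with Isx-9, a ratio of 75.0 (42.7 to 146). Cryab, the small heat shock protein that binds desmin and titin in muscle, had 19 and 778 UMIs, a ratio of 54.1 (34.4 to 90.4), after being almost absent in bulk. Hspa2 had a ratio of 12.1 (10.9 to 13.5), Dnaja4 one of 8.91 (7.23 to 11.1) and Hsf2 one of 2.75. Bag3 was at 0.86 and Hsf1 at 0.89. None of 14 chaperones of the endoplasmic reticulum and none of 7 measured TRiC subunits was 1.5-fold away from DMSO in either direction, while 4 of 8 mitochondrial genes were 1.5-fold lower, as were 9.73% of all 14417 genes, among them Lonp1 (0.47) and Hspa9 (0.50), the mitochondrial HSP70.

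Cells of all 4 libraries were clustered together with the chaperone genes left out of the clustering, which gave 20 clusters. Controls filled clusters 0 to 14. Isx-9 cells filled clusters 15 (enteroendocrine-like, 3898 cells), 16 (3043 cells, unnamed, led by Cym and Ifitm1), 17 (regenerative-like, led by Clu and Ly6a, 548 cells), 18 (616 cells, unnamed, led by histone genes and Tubb6) and 19 (progenitor-like of the enteroendocrine lineage, with Neurog3, 845 cells). A further 133 lay in cluster 5 (enteroendocrine-like) and 33 in cluster 9 (tuft-like). Clusters 15 to 19 were almost wholly of the Isx-9 library, so state and library cannot be told apart in them.

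Hspb1 UMIs were present in all 7 Isx-9 groups of at least 30 cells, with no background share of that library to set them against. Its level was 476.9 CPM (462.0 to 492.1) in cluster 17, 454.6 (373.9 to 547.4) in the 33 tuft-like cells, 230.8 (226.1 to 235.7) in cluster 16, 164.1 (156.9 to 171.6) in cluster 18, 122.6 (118.6 to 126.7) in cluster 15, 94.99 (88.1 to 102.3) in cluster 19 and 49.1 (28.0 to 79.7) in cluster 5. The first pair overlap in their counting intervals, and each later step of that order lies beyond them. The cells of cluster 5 had a median of 1767 UMIs and 16 Hspb1 UMIs in all, so its level is the least certain. With cells thinned to 5000 UMIs, a Hspb1 UMI was seen in 86.2% of cells in cluster 17, 64.5% in 16, 53.2% in 18, 42.4% in 15 and 31.4% in 19. Regenerative-like cluster 17 held 6.0% of the Isx-9 cells and 20.2% of their Hspb1 UMIs, and enteroendocrine-like cluster 15 held 42.4% of the cells and 18.1% of these UMIs.

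In the controls Hspb1 stayed near 0 in every state. Over 41 groups of a cluster and a library with at least 100 cells, the median was 0.206 CPM, 14 groups had no UMI, and the highest was 6.43 CPM (13 UMIs) in enteroendocrine-like cluster 5 of wild type. Regenerative-like cluster 2 of the DMSO library had 12 UMIs, all in 2 cells, and 2.87 CPM (1.48 to 5.01). The lowest Isx-9 state was thus above the highest control state.

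**Figure D4:**
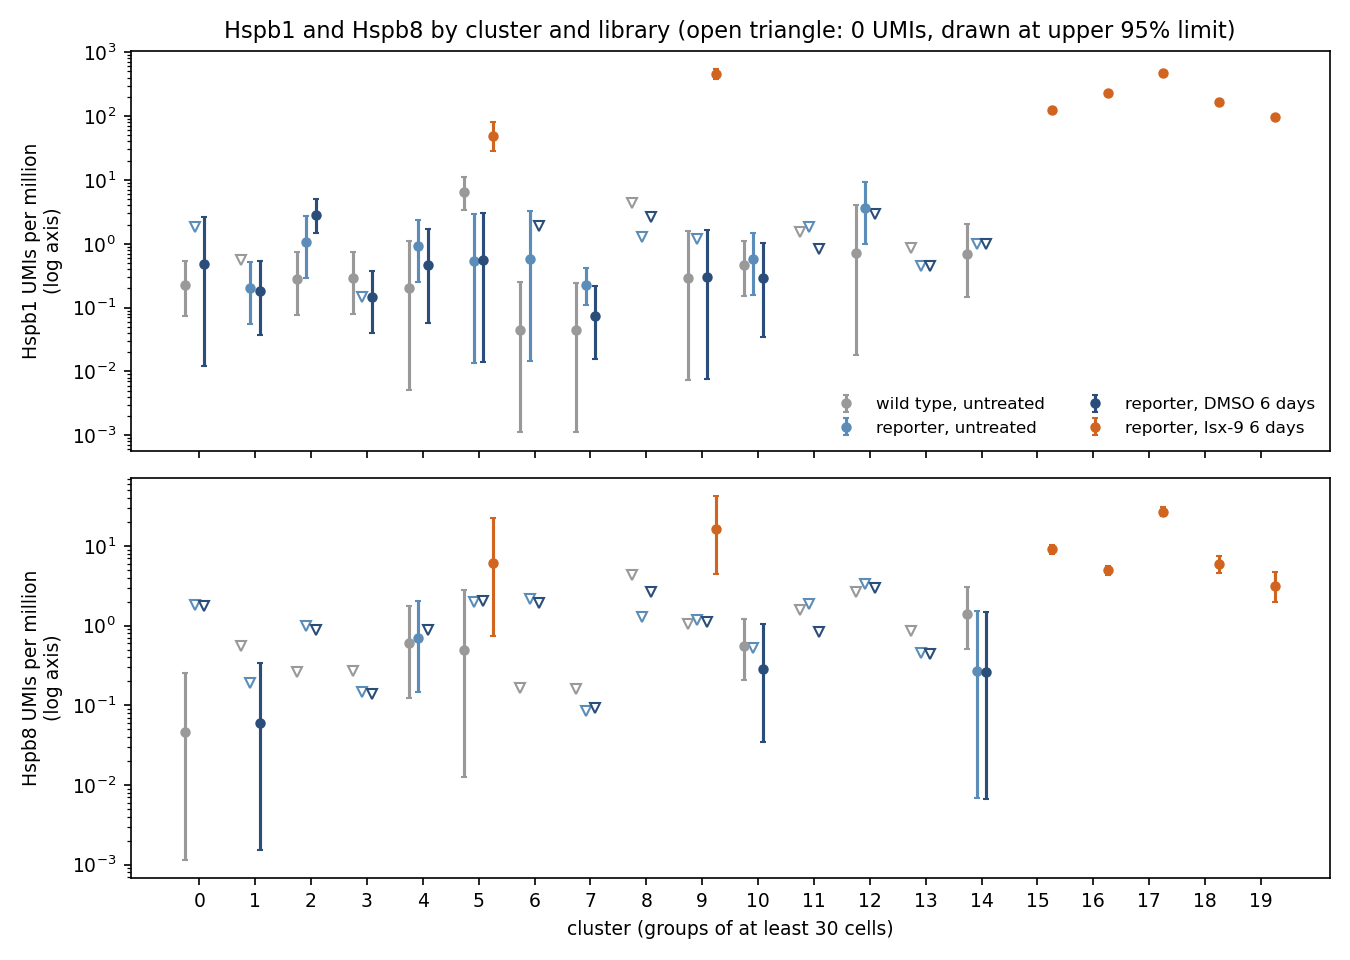
Level in CPM of UMIs (log axis) of Hspb1 and Hspb8 by cluster and library, for groups of at least 30 cells, with exact Poisson 95% intervals; open triangles mark groups with 0 UMIs at their upper limit. Hspb1 is between 49.1 and 476.9 in the Isx-9 groups and at most 6.43 in the control groups.

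Hspb8 was likewise highest in cluster 17, at 26.8 CPM (23.4 to 30.6), against 9.06 (7.99 to 10.2) in cluster 15, 5.91 in cluster 18, 4.92 in cluster 16 and 3.13 (1.98 to 4.70) in cluster 19. It had no UMI in 31 of the 41 control groups, and its highest control value was 1.40 CPM, in Paneth-like cells of wild type. Hspa1b was also highest in cluster 17, at 23.4 CPM, and was at 1.5 CPM in cluster 19. Other members peaked elsewhere. Hspd1 ranged over the Isx-9 states of at least 100 cells from 101 CPM in cluster 5 to 563 CPM in cluster 18, and Hspe1 from 227 to 875 CPM in the same clusters. Hsp90aa1 was highest in cluster 18 (847 CPM) and Hspa8 in cluster 19 (2656 CPM). Hsph1 lay between 21.5 and 53.0 CPM, with the highest value in cluster 15.

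Where a class was held by both libraries, ratios were read within it. The enteroendocrine-like class had 4042 Isx-9 cells, nearly all in cluster 15, and 629 DMSO cells, all in clusters 4 and 5. Hspb1 was at 121.7 against 0.495 CPM (3510 and 3 UMIs), a ratio of 245.8 (84.0 to 1193), which was 128 (43.7 to 619) with a Leiden resolution of 1.5. State and treatment cannot be told apart in the ratios of this class either. Within cluster 5 alone, Hspb1 was at 49.1 CPM in 133 Isx-9 cells. It was at 6.43 CPM in 234 wild-type cells of that cluster, the highest control group. Both levels rest on few UMIs. The regenerative-like class had 553 Isx-9 cells, nearly all in cluster 17, and 318 DMSO cells in cluster 2. In it Hspb1 was at 474.6 against 2.87 CPM, a ratio of 165 (94.6 to 321). Cluster 2 was led by Fabp6, Lgals3, Sprr1a, Ly6d and F3, and cluster 17 by Clu, Ly6a, Reg3b, Cym and Ly6c1. Only S100a6 was among the top 10 genes of both, so state and treatment cannot be told apart in the ratios of this class. The tuft-like class, in which both libraries share cluster 9, had 33 and 359 cells and 111 and 1 Hspb1 UMIs, a ratio of 1526 with a wide interval of 268 to 60829. The choice of control moved these values: against wild type the ratio of Hspb1 was 61.2 (36.4 to 112) in enteroendocrine-like cells, which held 14 UMIs there, and 1664 (650 to 6112) in regenerative-like cells, which held 4. Hspb8 had no UMI in the DMSO cells of any of these classes. Against a floor of 3 counts per library and class, its Isx-9 level was 18.3-fold, 37.2-fold and 18.3-fold higher. These folds leave out the counting error of the Isx-9 level. In tuft-like cells that level rests on 4 UMIs (16.4 CPM, 4.46 to 41.9). Enteroendocrine-like cells of wild type held 4 Hspb8 UMIs (0.568 CPM).

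Within classes the other chaperones did not follow 1 direction. In enteroendocrine-like cells Hspa8 was at 1616 CPM with DMSO and 1233 with Isx-9 (0.76), Hsp90aa1 at a ratio of 0.76, Hspe1 of 0.64 and Hspd1 of 0.54 (0.51 to 0.57), while Hsph1 was at 1.504 (1.30 to 1.75), Hspa1b at 1.96 and Dnajb1 at 0.94. In regenerative-like cells Hspa8 was at 1260 against 2363 CPM (1.88, 1.82 to 1.93), Hsph1 at 15.5 against 41.8 CPM (2.69, 2.06 to 3.56), Hspe1 at a ratio of 1.34 and Hspd1 of 0.93. Hspa1a in that class was at 6.93 against 9.38 CPM and at 17.97 in wild type, so its ratio was 1.35 to DMSO and 0.52 to wild type. In tuft-like cells Hspd1 was at 0.37 (0.26 to 0.51) and Hspa8 at 0.998 (0.90 to 1.10). In these 3 classes, then, Hspb1 was far higher with Isx-9, though enteroendocrine-like and regenerative-like cells lay mostly in different clusters by library. Hspe1 was lower in enteroendocrine-like and higher in regenerative-like cells. The value of Hspa8 in enteroendocrine-like cells depended on the clustering: at a finer Leiden resolution of 1.5 it was 0.97 (0.94 to 0.999) against DMSO and 1.12 (1.09 to 1.16) against wild type.

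**Figure D5:**
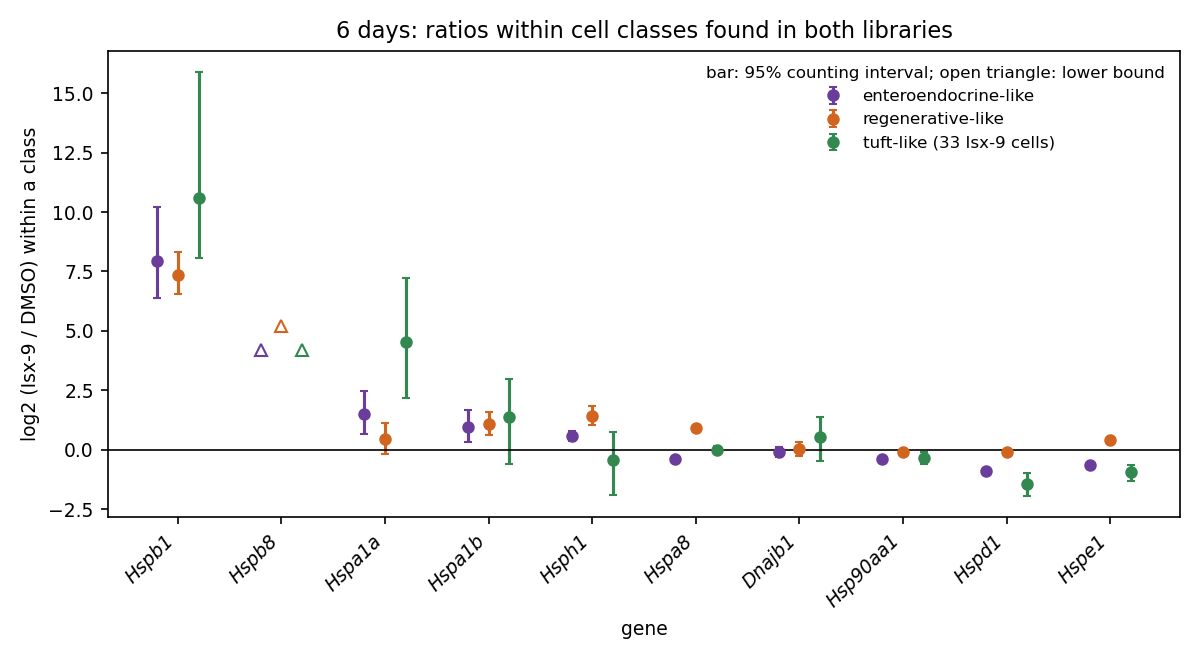
Log2 ratio of Isx-9 to DMSO of each member within the 3 cell classes present in both libraries, with 95% counting intervals. Open triangles, labelled lower bound, are for Hspb8, which had 0 UMIs in DMSO cells. They set its Isx-9 level against a floor of 3 counts and leave out the counting error of that level. Hspb1 is high in all 3 classes, and Hspa8 has ratios of 0.76 in enteroendocrine-like and 1.88 in regenerative-like cells. Enteroendocrine-like and regenerative-like cells of Isx-9 and of DMSO lie mostly in different clusters.

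Across 47 groups of a cluster and a library with at least 100 cells, the 8 genes whose level followed Hspb1 most closely (Pearson r of log2(CPM + 1), among 12865 genes) were Fn1 (0.97, Spearman rho 0.64), Col4a2 (0.96), Itm2a (0.96), Rcn3 (0.96), Wdr86 (0.96), Apba2 (0.96), Foxe1 (0.96) and Trps1 (0.96). By Spearman rho Col4a2 and Rcn3 were at 0.59, Foxe1 at 0.52, Apba2 at 0.50, Itm2a at 0.48, Trps1 at 0.47 and Wdr86 at 0.45. Fn1 encodes fibronectin and Col4a2 a chain of basement membrane collagen. Among the members Hspb8 ranked 54 (r 0.93, rho 0.52). Hsph1 was at an r of 0.39, Hspa1a at 0.34, Dnajb1 at 0.30, Hspa1b at 0.24 and Hspa8 at 0.18. Hsp90aa1 was at -0.03, Hspe1 at -0.32 and Hspd1 at -0.39. By rho Dnajb1 was at 0.49, above Itm2a, Trps1 and Wdr86. The groups share libraries, and 6 of them come from the Isx-9 library, on which these values rest. In the 41 control groups Fn1 was at 0.38, Col4a2 and Rcn3 had no UMI, and the other 5 lay between -0.12 and 0.04.

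Summed markers of other cell types were also higher with Isx-9, though not every marker was. The summed level of 7 mesenchymal markers was 23.3, 36.6 and 34.1 CPM in the controls and 357 CPM with Isx-9, of which Vim, also present in enteroendocrine-like cluster 5, made up 347 CPM. Of the other 6, Lum was at 0 in all 4 libraries, and with Isx-9 Col1a1 was at 3.26, Col1a2 at 2.67, Pdgfra at 3.77, Dcn at 0.655 and Col3a1 at 0.198 CPM. By Isx-9 state the sum without Vim was 19.97 CPM in cluster 15, 15.4 in cluster 17, 5.61 in cluster 16, 4.90 in cluster 18, 4.76 in cluster 19, 12.3 in cluster 5 and 4.10 in the tuft-like cells of cluster 9. Cluster 15 was thus highest and cluster 9 lowest by this sum, whereas Hspb1 was highest in cluster 17 and lowest in cluster 5. The sums of clusters 16, 18 and 19 lie close together and carry no interval. In the bulk libraries the sum over 6 of these genes was 5.11 and 6.45 CPM with DMSO and 50.0 and 32.2 with Isx-9, with Dcn at 0 in both Isx-9 libraries. The 7 immune markers summed to at most 1.41 CPM in controls and 34.2 CPM with Isx-9, mostly from Cd74 (17.5), Laptm5 (9.67) and Coro1a (6.68). Ptprc, the pan-leukocyte marker, was at 0.114 CPM with Isx-9 and between 0.123 and 0.516 in the controls, and Cd3e was at 0. The 4 endothelial markers summed to at most 0.450 and 14.9 CPM, with Cdh5 at 0. The 4 glial markers summed to between 2.43 and 2.49 CPM in controls and 10.2 CPM with Isx-9, with Sox10 at 0 in the controls and 0.936 CPM with Isx-9. In bulk the sums were 3.66 and 1.49 CPM with DMSO against 7.37 and 7.03 with Isx-9 for 5 immune markers, 0.431 and 0.992 against 3.99 and 3.94 for 2 endothelial markers, and 2.69 and 3.09 against 5.88 and 4.24 for 4 glial markers. The part of such cells in the Hspb1 values was not tested.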

How the data were processed

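RNA was measured in 4 bulk libraries of sorted stem cells and in 4 single-cell libraries of organoids, grouped by their labels. The 6 ATAC-seq samples were not analysed here. The bulk values are read counts of genes, deposited by the authors as whole numbers. Per the submitters' processing notes, Trim Galore 0.6.4, HISAT2 and HTSeq 0.12.4 were used with GRCm38. No source used here gives the strand setting or the annotation release, so overlapping genes may share reads. The single-cell values are deposited UMI counts; the submitters' processing notes list Seurat 3.1.5 and Cell Ranger 3.1.0. The authors' deposited comparison table (DESeq2 1.24.0 in the same notes) holds a mean signal of normalized counts, log2 fold changes, a score (the Wald statistic) and p-values, of which only the log2 fold changes are printed.

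The members and lists were chosen with earlier results of these data known. Named are all 10 members, up to 4 genes of each other list with the largest absolute log2 fold change among those past the test, Hsf1, Bag3, Cryab, Hsp90ab1 and Dnaja1, and the 8 genes most like Hspb1. Hspb6 and Hspb9 are named as the other tested genes of their list. Other genes named at 6 days were chosen after their values were seen.

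After filterByExpr, the bulk counts were TMM-scaled and fitted with edgeR 4.0.16 in R 4.3.3 (quasi-likelihood F test, Benjamini-Hochberg threshold 0.05); the CPM are TMM-scaled too. In a check on simulated data, counts drawn for the same 17418 genes were filtered and fitted again. Of 181 changed genes that passed the filter 140 were called, with 19 false calls. The false calls were thus a larger share of the calls than the threshold of 0.05. DESeq2 1.42.0 was 1 of the alternatives.

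Single cells needed 500 genes and 1000 UMIs, with no more than 20% of UMIs from mitochondrial genes. Doublets called by Scrublet were removed (scanpy 1.11.5, Python 3.11.15). The libraries were clustered together without batch correction on 2000 variable genes, leaving out 97 chaperone and related genes (30 components, 15 neighbours, Leiden resolution 1). A cluster was named "-like" for the class with the most markers among its 50 leading genes by fold, if these were at least 3 and no other class had more among the top 10. UMIs were summed per library and state, with exact 95% intervals (Poisson for levels, binomial for ratios) that cover counting error only. Where the DMSO cells of a class had 0 UMIs, the Isx-9 level was set against 3 counts, without its own counting error.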

Additional observations from a re-analysis of the deposited data

Results flagged for a closer look

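Hspa8 and Hspe1 stood on opposite sides of 1 in different cell classes after 6 days. The ratio of Isx-9 to DMSO of Hspa8, the constitutive HSP70, was 1.88 in regenerative-like cells and 0.76 in enteroendocrine-like cells. With a Leiden resolution of 1.5 the latter was 0.97, and 1.12 against wild type, so this contrast depends on how the enteroendocrine-like class is drawn. For Hspe1, the lid of the mitochondrial chaperonin, the ratio was 1.34 in regenerative-like, 0.64 in enteroendocrine-like and 0.52 in tuft-like cells. At that resolution it was 1.25, 0.74 and 0.52. At resolution 1 the counting intervals of these values lay on the same side of 1 against each of the 3 control libraries. Each condition has 1 library, and the difference between classes was not tested. Regenerative-like and enteroendocrine-like cells of Isx-9 and of the controls lie mostly in different clusters. The regenerative-like clusters also differ in leading genes, Clu and Ly6a with Isx-9 and Fabp6 and Lgals3 in the controls. State and treatment cannot be told apart there.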

How the results depend on the processing

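Of 65 alternative values of the main results, 63 kept their direction and stayed within 1.5 times, or within the error, of the value reported. The exception was the number of bulk genes that fell, 3488, which was 2095 when scaled by library size alone. Leaving out 1 bulk library gave between 2062 (without Isx-9 replicate 1) and 3090 genes lower, and between 3599 and 4536 higher. The cause was not tested. The log2 fold change of Hspa8 in bulk, which did not pass the test, changed sign with library size alone (0.02). Without the Isx-9 library, 0 of the 8 genes most like Hspb1 stayed among the closest 8.

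With the replicate number as a block, 4723 bulk genes rose and 3408 fell, and Hspb1 lay 4.02 above the median of the other members. The deviations of same-numbered libraries did not go together (r = -0.02 across 10378 genes with a mean of at least 10 CPM, in 2 pairs). With so few libraries this cannot tell whether same-numbered libraries share an origin.

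At 6 days the ratio of Hspb1 ranged from 815 (untreated reporter as control) to 946 (highest 8% of doublet scores removed in each library, an alternative chosen after seeing the data). It was 871 with called doublets kept. In enteroendocrine-like cells it was 246 and 128 with a Leiden resolution of 0.6 and 1.5. Depth limits the control levels of Hspb1 and Hspb8, which rest on 4 to 39 UMIs per library.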
